A study of Mus musculus with 12 samples.

Results

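Itgax, Mmp12 and Cd163 are 3 genes known from macrophages, taken by their symbols from 366 genes in the deposited tables of a mouse liver RNA-sequencing study. Itgax and Mmp12 are among the 336 rows of the table that set high-fat diet (HFD) against chow, and Cd163 is among the 33 rows of the table that set pregnenolone-16alpha-carbonitrile (PCN) against vehicle. The 12 mice, 3 in each of 4 groups, were C57BL/6N and all PXR deficient, the chow mice included. PXR, the pregnane X receptor, is a nuclear receptor that senses foreign compounds, and PCN is its standard rodent ligand. The mice ate chow or HFD for 18 weeks from 6 weeks of age. Mice 670, 695 and 707 ate chow and had no injection in the labels. Mice 659, 669 and 696 ate HFD, also with no injection. Mice 682, 697 and 705 ate HFD and were injected into the abdomen with vehicle (30% DMSO in corn oil) once a day for 4 days. Mice 688, 698 and 706 ate HFD and were injected on the same schedule with PCN at 50 mg/kg. The labels give no sex and do not say how PXR was removed, and the PXR gene itself was not analysed here.

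Macrophages of the liver are of more than one kind. Resident macrophages, the Kupffer cells, line the sinusoids and clear particles, old red cells and free haemoglobin from the blood. In obesity, macrophages derived from blood monocytes can take up lipid and are described as lipid-associated, with surface and protease genes that resident cells express less. Itgax encodes CD11c, an integrin alpha chain that pairs with the beta chain encoded by Itgb2 and serves adhesion and uptake of complement-coated particles. It marks lipid-laden macrophages and is also a classical dendritic cell gene. Mmp12 encodes macrophage elastase, a secreted zinc protease that cuts elastin and other matrix proteins. Cd163 encodes the scavenger receptor for haemoglobin bound to haptoglobin, is used as a marker of resident macrophages, and is known to be induced in macrophages by glucocorticoids.

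Both tables hold only genes that the authors' own test had already selected: no row changed by under 0.6 on the authors' log2 scale in either direction, and adjusted p reached at most 0.0474 among the diet rows and 0.09547 among the PCN rows. The 3 genes were chosen because they were among these rows, so their differences are described below, and no value of the same contrast is an independent test of them. The counts of the listed rows summed to between 547431 and 920106 per mouse in the diet table and to between 34989 and 103036 in the PCN table, and the full depth of each library is unknown. Levels below are normalized counts, that is read counts divided by the authors' size factor for that mouse, and each table has its own factors, so levels were not compared between the tables. The liver label could not be checked with the 10 hepatocyte genes listed for that purpose, none of which was among the rows held. RNA of whole liver pieces was measured, in which more cells of a type and more RNA per cell cannot be told apart.

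The windows around the annotated start sites are shown because Itgax and Mmp12 were both chosen as higher on HFD, and because Cd163 was higher with a compound whose receptor the labels give as deficient. That Itgax and Mmp12 share a direction is fixed by this choice. They run from 250 bases before to 50 bases after each RefSeq start on GRCm38.p6, all on the plus strand, read 5′ to 3′. Capitals mark matches, on either strand, to 6 short motifs: GAGGAA (the core bound by PU.1, a myeloid factor), TGANTCA (AP-1), AGAACA (a hexamer bound by the glucocorticoid receptor), AGGTCA (a hexamer bound by many nuclear receptors), TTCNNNGAA (STAT) and GGGA followed after any 4 bases by CC (NF-kB). No matches of different motifs overlapped in these windows. Mmp12 has 2 RefSeq starts. The windows are chr7:128129300-128129599 for Itgax, chr9:7344147-7344446 and chr9:7347124-7347423 for Mmp12, and chr6:124304401-124304700 for Cd163.
Itgax: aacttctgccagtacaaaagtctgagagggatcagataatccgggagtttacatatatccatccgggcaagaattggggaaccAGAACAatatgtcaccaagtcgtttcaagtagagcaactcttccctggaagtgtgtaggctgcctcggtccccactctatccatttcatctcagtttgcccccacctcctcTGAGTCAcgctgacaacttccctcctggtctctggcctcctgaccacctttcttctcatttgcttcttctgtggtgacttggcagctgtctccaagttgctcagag
Mmp12 start 1: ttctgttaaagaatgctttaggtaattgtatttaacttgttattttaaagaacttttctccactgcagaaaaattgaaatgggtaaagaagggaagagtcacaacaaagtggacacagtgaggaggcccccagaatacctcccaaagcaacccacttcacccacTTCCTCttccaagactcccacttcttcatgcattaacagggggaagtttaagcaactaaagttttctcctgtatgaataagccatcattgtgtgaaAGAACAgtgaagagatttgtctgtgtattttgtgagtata
Mmp12 start 2: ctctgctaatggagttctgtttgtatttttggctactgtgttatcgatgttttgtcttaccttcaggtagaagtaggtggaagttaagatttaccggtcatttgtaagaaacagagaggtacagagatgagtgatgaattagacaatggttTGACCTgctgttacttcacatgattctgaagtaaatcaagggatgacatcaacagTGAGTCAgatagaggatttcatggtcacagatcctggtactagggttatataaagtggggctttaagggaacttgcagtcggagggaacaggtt
Cd163: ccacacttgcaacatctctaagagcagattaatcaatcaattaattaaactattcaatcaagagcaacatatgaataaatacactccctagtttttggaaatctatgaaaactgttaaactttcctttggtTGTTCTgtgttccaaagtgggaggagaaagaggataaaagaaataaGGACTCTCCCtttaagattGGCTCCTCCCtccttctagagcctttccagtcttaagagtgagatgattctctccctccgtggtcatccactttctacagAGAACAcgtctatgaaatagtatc

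An AP-1 match lay in the Itgax window, from 56 to 50 bases before the start, and in the window of the second Mmp12 start, from 44 to 38 bases before it (TGAGTCA in both). AP-1 matches were found in 7.81% of the 32851 promoter windows of the same length. The first Mmp12 window held a PU.1 core on the minus strand, which 28.3% of windows hold, and the second held a nuclear receptor hexamer on the minus strand, which 16.3% hold. The glucocorticoid receptor hexamer occurred in the Itgax window, in the first Mmp12 window and at 2 places in the Cd163 window, against 19.0% of all windows with at least 1 match. The Cd163 window also held 2 NF-kB matches (20.7% of windows), and no window of the 3 genes held the STAT letters (8.30% of windows). These are matches of letters only, and no binding was measured.

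**Figure D1:**
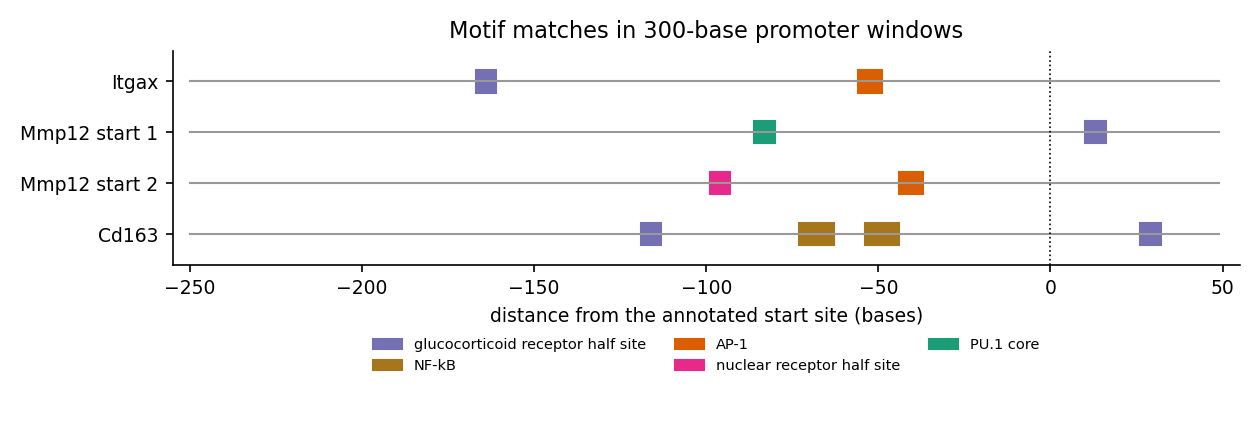
Positions of motif matches in the promoter windows of the 3 genes, in bases from the annotated start site (dotted line). Each bar is 1 match and each colour 1 motif; the AP-1 matches of Itgax and of the second Mmp12 start lie within 60 bases of the start.

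Itgax (ENSMUSG00000030789) lies on chromosome 7 from 128129547 to 128150657 (GRCm38, plus strand), with 30 separate exon blocks. Chow mice 670, 695 and 707 had 3.91, 4.80 and 13.3 normalized counts of Itgax, and HFD mice 659, 669 and 696 had 37.1, 30.1 and 46.6. Every HFD mouse was above every chow mouse, and the lowest HFD value was 2.27 times the highest chow value. The group means were 7.33 ± 5.17 on chow and 37.9 ± 8.27 on HFD (SD, n = 3 each), a 5.18-fold difference. Chow mouse 707 stood above the other chow mice, and without it the difference was 8.71-fold. In the authors' deposited table, the values that chose the gene were a log2 fold change of 1.24 (SE 0.29) and an adjusted p of 0.002428; the log2 ratio of the group means was 2.37.

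These are small numbers of reads. The raw Itgax counts were 4, 5 and 11 on chow and 41, 28 and 53 on HFD. The exact 95% Poisson intervals of the normalized counts, which cover counting error only, ran from 1.06 to 10.01 for mouse 670 and from 6.63 to 23.8 for mouse 707, so these 2 intervals overlap. Counting alone would give a standard deviation of 2.85 on chow and 5.97 on HFD, against the 5.17 and 8.27 seen. The interval of the lowest HFD mouse, 669, ran from 20.0 to 43.6 and overlapped that of chow mouse 707.

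Mmp12 (ENSMUSG00000049723) lies on chromosome 9 from 7344381 to 7369499 (plus strand), with 11 exon blocks. Chow mice 670, 695 and 707 had 12.7, 7.68 and 12.1 normalized counts of Mmp12, and HFD mice 659, 669 and 696 had 82.2, 47.4 and 24.6. The groups did not overlap, and the lowest HFD mouse had 1.94 times the highest chow value. The means were 10.8 ± 2.74 on chow and 51.4 ± 29.0 on HFD (SD, n = 3 each), a 4.75-fold difference, and 3.33-fold without mouse 659. The deposited table gave a log2 fold change of 1.19 (SE 0.29) and an adjusted p of 0.004862, where the log2 ratio of the means was 2.25. The spread of the chow mice was no wider than counting alone gives (SD 2.74 against 3.38). The HFD mice spread far wider than that, with an SD of 29.0 where counting alone would give 6.999, and mouse 659 had 3.34 times the Mmp12 of mouse 696.

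**Figure D2:**
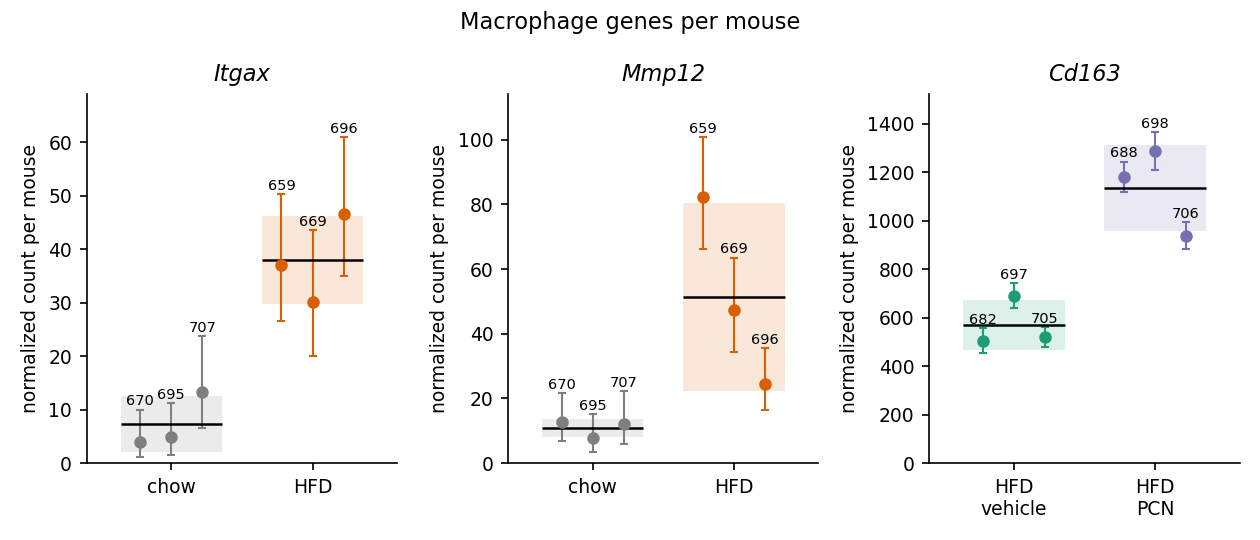
Normalized count of Itgax, Mmp12 and Cd163 in each mouse (points, labelled by mouse number), with exact 95% Poisson intervals for counting error (bars), group means (black lines) and 1 SD either side (shaded). In each panel the points of the groups do not overlap, though some intervals of Itgax and Mmp12 do. Mmp12 in HFD mice spreads from 24.6 to 82.2.

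The HFD mice took a different order for each of these genes. For Itgax mouse 696 was highest and mouse 669 lowest; for Mmp12 mouse 659 was highest and mouse 696 lowest. Over the 214 other rows that were higher on HFD, 41 (19.2%) ordered the HFD mice as Mmp12 did and 20 (9.35%) as Itgax did. Mouse 659 was the highest HFD mouse in 96 of the 215 higher rows and mouse 696 in 51. The SD of Mmp12 over the HFD mice was 56.4% of its mean, and 13 of the 215 higher rows had a larger share. That share was 21.8% for Itgax, near the median of 18.7% over those rows.

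Among the 215 rows higher on HFD, Itgax had the 29th and Mmp12 the 33rd largest ratio of means, where the median ratio was 2.31-fold. Both were among the rows with fewest reads: 16 of the 336 rows had a lower mean count than Itgax and 25 a lower one than Mmp12, against a median of 270.8. About 24990 genes entered the authors' test, recovered from the relation of p to adjusted p, and 0.860% of them are rows called higher on HFD. The row with the largest adjusted p, that of Mmp2, stood at about rank 404 by p. Genes called but not among the 336 rows are therefore left out of this share. Since the rule took both genes from these calls, nothing is read from that share. Of the 336 rows, 99.4% had groups that did not overlap, and in 63.7% every HFD mouse was above every chow mouse, so the separation seen in Itgax and Mmp12 is what nearly all selected rows show. The call of each gene rests on the authors' test. Among the alternatives, edgeR's quasi-likelihood test with adjustment for all the genes they tested called 8 rows higher (2.42% of the 330 fitted), which did not include Itgax or Mmp12, and DESeq2 refitted to the rows called 105 (31.2%), which included both. These refits use the counts that chose the genes and see selected rows only, so neither call is evidence for or against the genes. Scaling by TMM over the listed rows, which centres the folds on selected rows, gave 3.33-fold for Itgax and 3.00-fold for Mmp12.

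**Figure D3:**
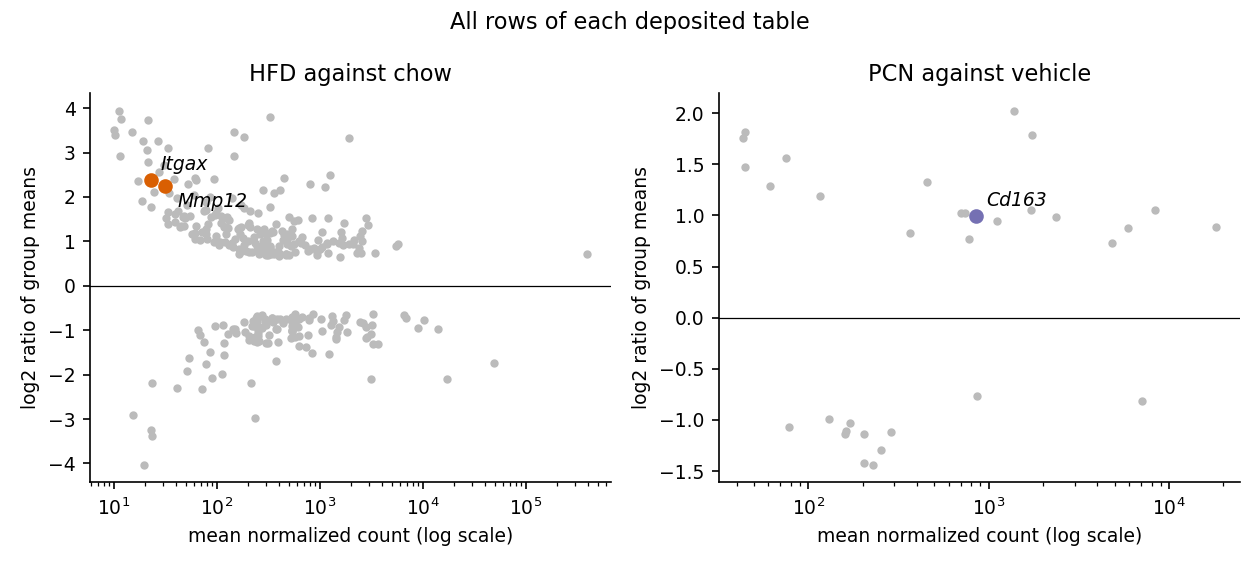
Mean normalized count (log axis) against the log2 ratio of group means for the rows of each deposited table; 1 row with no reads on chow is left out. Itgax and Mmp12 sit among the rows of low mean count and Cd163 among those of middle to high count.

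Per length, the order of the diet genes depended on the transcript taken. With all annotated exons joined (4803 bases for Itgax, 7237 for Mmp12), HFD mice had 7.90 ± 1.72 normalized counts per kb for Itgax and 7.10 ± 4.01 for Mmp12 (SD, n = 3 each). With the longest protein-coding transcript (4046 and 3607 bases) the same levels were 9.38 ± 2.04 and 14.3 ± 8.05. On these lengths the difference between the genes was within the SD of Mmp12. With the shortest protein-coding transcript (1215 and 362 bases) the levels were 31.2 ± 6.80 and 142 ± 80.2, a gap wider than that SD, so no order of the genes is given.

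Genes next to the members bear on what was counted. Itgax sits between its integrin relatives Itgam, 11.1 kb upstream, and Itgad, 3.7 kb downstream. Of the 4790 distinct 50-base words in Itgax transcripts, 8.02% also occur in transcripts of another gene, in each case Itgad. A read with no base outside such a stretch cannot be assigned to either gene by its own sequence. Mmp12 lies in a cluster of 9 other Mmp genes within 500 kb and overlaps Mmp1b, which is on the other strand, over 1261 bases, of which 157 are exonic in both genes (2.17% of the Mmp12 exon bases). Whether counting used strand is not given in the sources used here, so whether reads in that stretch could be assigned is not known. The share of 50-base words found in another gene was 2.53% for Mmp12. For Cd163, 0.109% of 50-base words are shared with another gene. None of the neighbouring integrin and Mmp genes was among the rows held. A predicted gene that is a diet row shares 4 words with Mmp12 (0.054%).

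The rows most like each member were ranked by the root mean square difference, over the 6 mice of its table, of log2(normalized count + 1) after centring each gene. All rows of a table were selected on the same contrast, so likeness between groups is built in. The ranking mixes the size of the fold with the pattern of mice within groups, and a near row need not order the mice alike. Nearest to Mmp12 were the collagen genes Col1a2 (0.29), Col3a1 (0.32) and Col6a2 (0.36), where the median over the higher rows was 0.79. Col1a2, a chain of type I collagen, went from 166, 139 and 144 in chow mice 670, 695 and 707 to 747, 451 and 334 in HFD mice 659, 669 and 696. These have the order of the HFD mice that Mmp12 has. Col3a1, the chain of type III collagen, was at 1691, 1407 and 879 in the same HFD mice and between 262 and 282 on chow. Itgax held only rank 107 by likeness to Mmp12, with a difference of 0.79.

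Nearest to Itgax were Nebl (0.26), which encodes the actin-binding protein nebulette, the zinc transporter gene Slc39a5 (0.32) and Ccdc3 (0.43), with a median of 0.87 over the higher rows. These 3 share with Itgax a raised value in chow mouse 707. Nebl was at 18.6, 13.4 and 37.4 in chow mice 670, 695 and 707 and at 98.5, 85.0 and 104.6 in HFD mice 659, 669 and 696. Slc39a5 was at 42.2 in mouse 707, close to the 52.7 of HFD mouse 669. Mmp12 held rank 62 by likeness to Itgax.

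**Figure D4:**
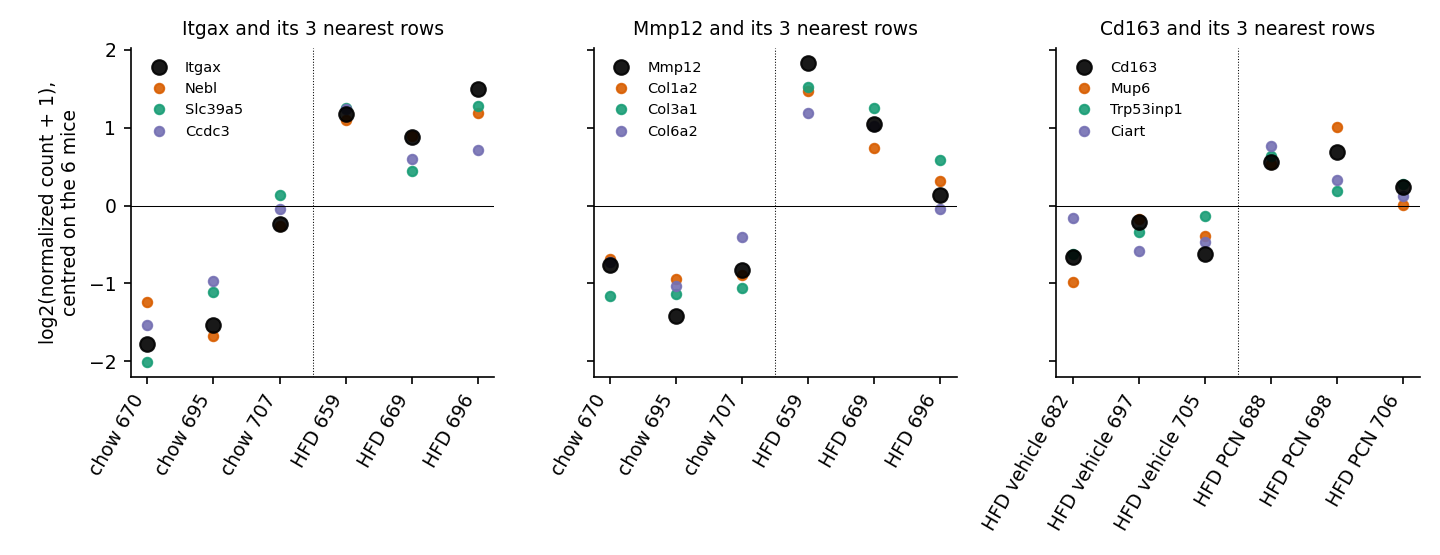
Centred log2 levels, log2(normalized count + 1) minus the gene's mean over the 6 mice, for each member (black) and the 3 rows most like it (colours); the dotted line parts the groups. Mmp12 and the collagen genes are highest in mouse 659 and, of the HFD mice, lowest in mouse 696, while Itgax and its neighbours are raised in chow mouse 707.

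Of 20 genes listed for lipid-associated macrophages, 4 were among the diet rows, and all 4 were called higher on HFD by the authors' test: Lgals1, Cd36, Itgax and Mmp12. The list was picked with these results known, and Itgax and Mmp12 were taken from these calls. Nothing is therefore read from the count beside the 0.860% of genes tested that are rows called higher. The median deposited log2 fold change of the 4 was 1.26 and that of all 336 rows 0.77, a gap that the selection fixes, since 121 of the rows were lower. Lgals1, which encodes galectin-1, a sugar-binding lectin, was at 392 ± 141 on chow and 1828 ± 204 on HFD (SD, n = 3 each). Cd36, a fatty acid uptake receptor that hepatocytes also express in fatty liver, was at 1438 ± 522 and 4171 ± 1018. With edgeR over all genes tested, Lgals1 alone of the 4 was called. The other 16 genes of the list, which include the lipid receptor gene Trem2 and the glycoprotein genes Gpnmb and Spp1, were not among the rows held and were not analysed here.

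Markers that would place Itgax and Mmp12 in a cell type were mostly absent from the rows. None of 18 general macrophage and myeloid genes was a row, Itgb2, the partner chain of CD11c, included. The same holds for 16 resident macrophage genes, 8 monocyte genes, 12 dendritic cell genes, 8 neutrophil genes and 12 cytokine and chemokine genes. Rows called higher and lower on HFD were 0.860% and 0.484% of the genes tested. Lists this short would mostly hold no row at those shares, so nothing is read from these absences. Of 16 lymphocyte genes 1 was a row: Themis, a gene of T cell development, was at 58.6, 25.0 and 13.3 in chow mice 670, 695 and 707 and at 372, 306 and 315 in HFD mice 659, 669 and 696. A gene that is not a row may have missed the limit on fold or that on adjusted p, which a large but noisy change can also miss. It may also be one of the rows not held, so no level of these markers is known. The part of cell numbers in the Itgax and Mmp12 values was not tested.

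Among 26 integrin genes, Itgax was called higher and Itga5 lower. Itga5, the alpha chain of the fibronectin receptor, was at 369, 305 and 418 in chow mice 670, 695 and 707 and at 228, 168 and 171 in HFD mice 659, 669 and 696, with a deposited log2 fold change of -0.83 and an adjusted p of 0.001959. Rows called lower on HFD were 0.484% of the genes tested. Among 25 metalloproteinase and inhibitor genes, Mmp12 and Mmp2 were called higher and none of those listed lower. Rows called higher were 0.860% of the genes tested. Mmp2 encodes gelatinase A, a product of stromal cells, and was at 30.3, 24.0 and 21.7 on chow and 82.2, 65.7 and 41.3 on HFD in the same order of mice. Its deposited adjusted p of 0.0474 was the largest among the diet rows. Mmp2 and Mmp12 thus ordered the HFD mice alike.

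Of 15 elastic fibre genes, whose fibres are the substrate of macrophage elastase, 3 were called higher. Rows called higher were 0.860% of the genes tested. Fbln2 was at 34.1 ± 7.72 on chow and 136 ± 7.77 on HFD, Fbln5 at 63.0 ± 5.07 and 125 ± 20.5, and the fibrillin gene Fbn1 at 164 ± 17.2 and 276 ± 52.4 (SD, n = 3 each). The elastin gene Eln was not among the rows. Of 12 stellate cell and fibroblast genes, 4 were called higher (Col1a1, Col1a2, Col3a1 and Vim), beside the same 0.860%. These lists too were picked with the results known. Over the 12 listed genes of the diet table other than the members, 7 (Col1a1, Col1a2, Col3a1, Fbln2, Fbln5, Mmp2 and Vim) ordered the HFD mice as Mmp12 did, and none did as Itgax did. Over the 214 other rows higher on HFD, those shares were 19.2% and 9.35%. The Itgax order is within counting error, so nothing is read from the absence of rows that share it. The 12 include Itga5, which was lower on HFD, and several matrix genes, so they are no random draw. The part of stromal cell content in the Mmp12 values was not tested.

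**Figure D5:**
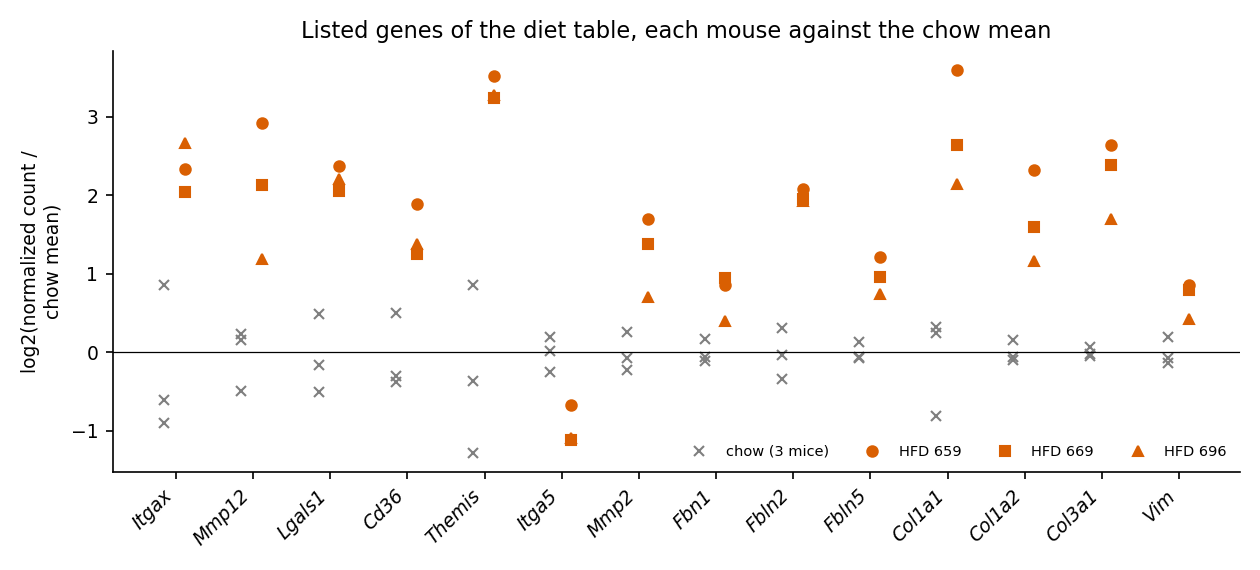
Log2 of each mouse's normalized count over the chow mean, for the members and the listed genes of the diet table; crosses are chow mice and filled symbols the 3 HFD mice. Mmp12, Mmp2 and the collagen genes run from mouse 659 down to mouse 696, whereas mouse 696 is the highest for Itgax, within counting error of the other HFD mice.

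Cd163 (ENSMUSG00000008845) lies on chromosome 6 from 124304656 to 124330527 (plus strand), with 16 exon blocks. Vehicle mice 682, 697 and 705 had 503, 689.7 and 518 normalized counts of Cd163, and PCN mice 688, 698 and 706 had 1180.3, 1286 and 938. The groups did not overlap, and the lowest PCN mouse had 1.36 times the highest vehicle value. Mean Cd163 was 570.4 ± 104 in the vehicle group and 1135 ± 178 in the PCN group (SD, n = 3 per group), a 1.99-fold difference and 0.99 on the log2 scale. The values that chose the gene, from the authors' deposited table, were a log2 fold change of 0.79 (SE 0.15) and an adjusted p of 0.0002962. Size factors re-estimated by DESeq2 from the 33 rows alone, which centre the folds on rows selected for change, gave 1.27-fold. With raw counts of 371 to 1386, counting error was small: it would give an SD of 24.4 with vehicle and 33.5 with PCN, so most of the spread lay between the mice.

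Of the 21 rows higher with PCN, Cd163 had the 14th largest ratio of means, where the median was 2.07-fold. About 25300 genes entered that test, and 0.0672% of them are rows called higher with PCN, from which nothing is read here because the gene was taken from this contrast. This share, too, counts only rows held. Another 10 rows (0.0395% of the genes tested) were called lower. All 33 rows (100%) had groups that did not overlap, and in 63.6% every PCN mouse was above every vehicle mouse. PCN mouse 698 was the highest for Cd163 and was the highest in 3 of the 21 higher rows, whereas mouse 688 was the highest in 13. Refitted to these selected rows with adjustment over all genes tested, edgeR and DESeq2 each called 2 rows higher (6.06% of the 33 fitted), and Cd163 was in neither set. These refits use the counts that chose Cd163 and are no independent test of it.

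The rows most like Cd163 were the urinary protein gene Mup6 (0.23), the p53-induced stress gene Trp53inp1 (0.29) and the clock gene Ciart (0.31), with a median of 0.36 over the higher rows. Mup6 was at 3813, 6687 and 5787 in vehicle mice 682, 697 and 705 and at 10959, 15276 and 7618 in PCN mice 688, 698 and 706. Mup6 orders the PCN mice as Cd163 does, with mouse 698 highest and 706 lowest. It belongs to a family of near-identical genes, so its counts are uncertain. Of the 20 other higher rows, 2 have that order, Mup6 among them. Ciart did not pass the adjusted p of 0.05 in the authors' deposited table.

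Of 16 resident macrophage genes, Cd163 was the only row of the PCN table, and the other 15, which include the Kupffer cell genes Clec4f, Timd4, Vsig4 and Marco, were not analysed here. The same was true of Cd163 among 16 scavenger receptor genes and among 14 genes of haemoglobin and haem clearance. Rows called higher were 0.0672% of the genes tested, and Cd163 was taken from this contrast, so nothing is read from these counts. Of 18 glucocorticoid receptor target genes 2 were called higher, Cd163, which was taken from this contrast, and Tat, beside the same 0.0672%. Tat, the tyrosine aminotransferase gene of hepatocytes, was at 12803 ± 2395 in vehicle mice and 23693 ± 7441 in PCN mice (SD, n = 3 per group). None of the lipid-associated, general macrophage, monocyte, dendritic cell or lymphocyte genes was a PCN row, so no marker shows whether macrophage numbers differed, and their part in the Cd163 values was not tested. Itgax and Mmp12 have no values in the PCN table and Cd163 has none in the diet table, so the lipid-associated and the resident genes could not be set against each other in the same mice.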

How the data were processed

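Liver RNA of 12 mice was analysed from 2 deposited tables with 3 mice per group, grouped by the sample titles. The submitters' processing notes name HISAT2, HTSeq, DESeq2 and the build GRCm38 (mm10) without roles; no source used here gives versions, settings or use of strand. Per the file headers, the authors deposited whole read counts for each gene and mouse with the results of their test (mean, log2 fold change and its error, p-value, adjusted p). Size factors were recovered by solving the mean column (largest gap 0.0051 counts). The number of genes tested was the value that gave whole ranks for most rows (265 of 276 rows used for diet, 19 of 21 for PCN).

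The 3 genes and all gene lists were chosen with earlier results of these data known, so the genes' own contrasts are a description, and refits of the same counts are no independent test. Calls are the authors' adjusted p under 0.05 among the rows held, and shares of the genes tested count those rows only. edgeR 4.0.16 and DESeq2 1.42.0 (R 4.3.3) were alternatives, checked on simulated data and fitted to selected rows only. The plan set no refit as the main test because a refit sees selected rows. Named genes are the members, listed genes among the rows and the 3 rows nearest to each member, predicted names left out; genes given as not held are examples of their lists. Gene models came from GENCODE M21 and promoters from RefSeq (GRCm38.p6), which held 4 windows for the 3 genes. Intervals are exact Poisson (95%).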

Additional observations from a re-analysis of the deposited data

How the results depend on the processing

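The direction of Itgax, Mmp12 and Cd163 was the same under every alternative run. The log2 ratios of means were 2.37, 2.25 and 0.99. TMM over the listed rows gave 1.73, 1.58 and 0.52, and DESeq2 size factors re-estimated from those rows gave 1.70, 1.57 and 0.34. Both scalings centre the folds on rows selected for change: they moved the median log2 ratio by -0.64 (TMM) and -0.66 (DESeq2) for diet, and by -0.50 and -0.64 for PCN. The authors' deposited log2 fold changes were 1.24 for Itgax and 1.19 for Mmp12, whereas DESeq2 refitted with the recovered size factors gave 2.41 and 2.25. The deposited values are thus smaller than plain ratios of these counts, and why was not tested. Leaving out each mouse gave 2.07 to 3.12 for Itgax, 1.73 to 2.58 for Mmp12 and 0.89 to 1.15 for Cd163. Only the highest of these for Itgax, without chow mouse 707, moved by more than the spread between mice.

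The count of rows called higher on HFD (215) was 130 at an adjusted p under 0.01, 92 at a deposited log2 fold change of at least 1, 8 with edgeR over all genes tested with or without a low-count filter, 67 with edgeR and TMM, and 105 with DESeq2. The count with PCN (17) was 7, 2, 2, 7 and 2 in the same order. Of the 4 lipid-associated genes called higher, 1 was called by edgeR over all genes tested, and all 4 by DESeq2, by edgeR with TMM and at both stricter limits; all these alternatives for the list were added after seeing the data. The calls of edgeR with TMM were adjusted over the fitted rows only, and those of the other refits over all genes tested. The TMM counts are therefore not on the same footing as the others, and no effect of scaling is read from them. Why the fits differ otherwise was not tested. The deposited test could not be repeated without single mice. No paired analysis was possible because the groups share no mouse numbers. Depth limits Itgax and Mmp12, with raw counts as low as 4 and 8.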
